A study of Mus musculus with 18 samples.

Results

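Amino acid transporters were followed as 10 genes chosen by symbol: Slc7a11, Slc7a5, Slc3a2, Slc7a1, Slc7a3, Slc1a4, Slc1a5, Slc38a1, Slc38a2 and Slc6a9. They and the related lists below were chosen with earlier results of these data known, so their counts beside all tested genes are descriptions. All 10 were among the 15288 genes of the deposited table, and all 10 were among the 11835 genes whose mean over 18 libraries was at least 1 CPM (a read count scaled to the library's total over the listed genes) and which were therefore tested. The libraries are bulk RNA-seq of mouse cells that the sample labels call pulmonary microvascular endothelial cells, whereas the series title speaks of smooth muscle cells. Cells grown in EGM-2 with 5% FBS were transfected with scrambled siRNA or with siRNA to Cyp1b1, which encodes a cytochrome P450 that metabolises estradiol. After 24 hours they received vehicle, 1 uM estradiol (E2) or 1 uM of the estrogen metabolite 16aOHE for 24 hours. The 6 groups were therefore scrambled vehicle, scrambled E2, scrambled 16aOHE, siCYP1B1 vehicle, siCYP1B1 E2 and siCYP1B1 16aOHE, with 3 libraries each. All groups had been transfected, so none shows untransfected cells. The labels do not say whether the 3 libraries of a group were separate cultures. The p-values thus reflect variation among these libraries, possibly technical in origin.

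Cells take up amino acids through carriers that either exchange one amino acid for another or use the sodium gradient. Slc3a2 encodes the heavy chain (4F2hc) that brings several light chains to the plasma membrane, among them LAT1 (Slc7a5), which imports leucine and other large neutral amino acids, and xCT (Slc7a11), which imports cystine for glutathione synthesis in exchange for glutamate. Several of these genes are known targets of ATF4, the transcription factor of the amino acid response, and Slc7a11 is also a known target of NRF2, the factor of the antioxidant response.

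A promoter of Slc7a11 is shown first because this gene had the largest difference with E2. RefSeq promoter windows (GRCm38.p6, the build of mm10, 250 bases before to 50 after an annotated start) were matched for 6 of the 10 genes, giving 9 windows, and none was matched for Slc7a5, Slc1a5, Slc38a1 and Slc7a3. Each window was searched on both strands for 3 motifs: the amino acid response core TGATGNAA, the antioxidant response core TGACNNNGC and the E-box CACGTG. The 250 bases before the Slc7a11 start, chr3:50443614-50443863 on the minus strand, are printed with capitals at the 2 amino acid response cores.
Slc7a11 promoter: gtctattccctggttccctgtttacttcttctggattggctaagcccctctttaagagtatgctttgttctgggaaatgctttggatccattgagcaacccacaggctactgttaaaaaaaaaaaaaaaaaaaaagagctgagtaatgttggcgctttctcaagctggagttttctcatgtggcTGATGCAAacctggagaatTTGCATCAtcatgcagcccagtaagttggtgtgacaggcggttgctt
One core lay at positions -66 to -59 from the start on the strand of the gene, and the other at -47 to -40 on the opposite strand. Of 32851 promoter windows in the reference table, 3.97% held at least 1 such core and 23 (0.07%) held 2 or more. The start used, chr3:50443613, is the 5' end of Slc7a11 in the deposited table, whereas the RefSeq gene extends upstream to 50499087.

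Other matches among the transporter windows were single. They are printed with 12 bases on each side and the motif in capitals: the amino acid response core of Slc1a4 (chr11:20332698-20332729, minus strand) and the antioxidant response cores of Slc38a2 (chr15:96699735-96699767, minus strand) and Slc7a1 (chr5:148399895-148399927, minus strand).
Slc1a4: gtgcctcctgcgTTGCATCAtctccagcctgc
Slc38a2: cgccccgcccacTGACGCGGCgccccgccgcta
Slc7a1: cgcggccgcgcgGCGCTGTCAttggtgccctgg
The Slc1a4 core spanned the start itself, from -4 to 4, on the opposite strand. The antioxidant core was present in 12.4% of all windows, so its presence at Slc38a2, at Slc7a1 and at 2 internal starts of Slc6a9 was common by that measure. No E-box, present in 7.15% of all windows, was found in the 9 windows, and the Slc3a2 window held none of the 3 motifs. That window belongs to a start 9472 bases inside the Slc3a2 gene of the deposited table. A match is a description of the letters only.

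**Figure D1:**
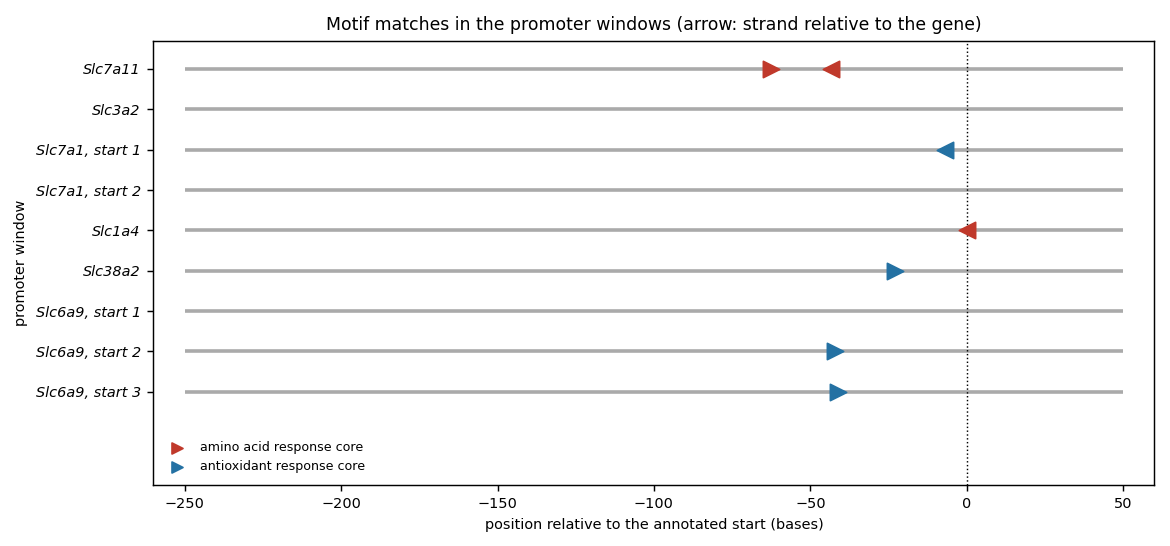
Motif matches in the 9 RefSeq promoter windows of 6 transporter genes, plotted by position relative to the annotated start in bases. Red arrows are amino acid response cores and blue arrows antioxidant response cores, and the arrow gives the strand relative to the gene. Slc7a11 has 2 amino acid response cores and Slc1a4 has 1.

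Per kilobase of merged GENCODE M21 exons, the sodium-coupled glutamine carrier Slc38a2 (SNAT2) had the highest mean level over the 18 libraries, 91.9 CPM per kb. Slc3a2 followed with 64.9, Slc7a5 with 57.0, the arginine and lysine carrier Slc7a1 (CAT1) with 43.2, the glutamine exchanger Slc1a5 (ASCT2) with 36.2 and Slc38a1 (SNAT1) with 23.2 CPM per kb. The serine and alanine exchanger Slc1a4 (ASCT1), the glycine carrier Slc6a9 (GLYT1) and Slc7a11 were lower, at 9.44, 9.10 and 3.96 CPM per kb. Slc7a3 (CAT3), a second cationic carrier, was close to the limit of detection with 0.46 CPM per kb, or 19 to 70 reads per library. The exon model of the deposited table was not given in the sources used here, and the GENCODE genes of Slc7a11, Slc7a3 and Slc6a9 reach well beyond the deposited intervals. Their levels per length may thus be understated, and the order of Slc1a4 and Slc6a9 is not firm.

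The genes differed in how much they varied. Slc38a1 and Slc38a2 had coefficients of variation of 2.27% and 3.62% over the 18 libraries, against 31.7% for the weakly expressed Slc7a3, 26.1% for Slc7a11, 14.6% for Slc7a5, 13.6% for Slc6a9 and 12.5% for Slc3a2. The highest group mean was that of siCYP1B1 E2 for all 10 genes. Among all tested genes, 30.1% had their highest group mean there, and only for Slc7a5 and Slc3a2 did that group differ from the next group in the order by limma (adjusted p = 5.76e-05 and 0.000222). The lowest group mean was that of scrambled vehicle for 5 of the 10 genes, compared with 23.6% of all tested genes.

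**Figure D2:**
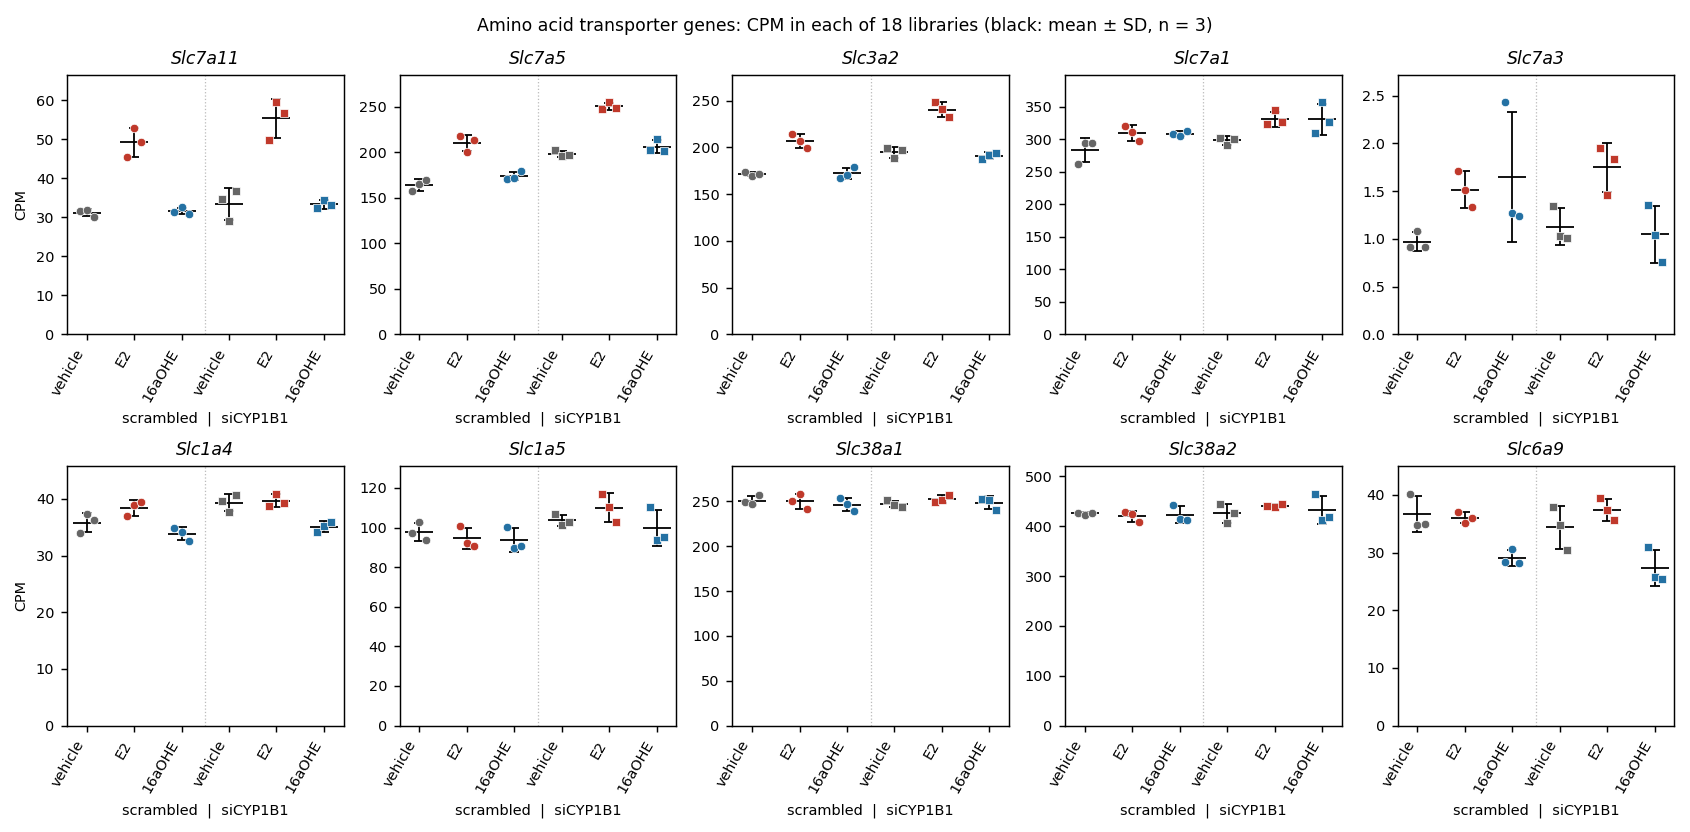
CPM of the 10 transporter genes in each of the 18 libraries, on linear axes from 0. Circles are scrambled and squares siCYP1B1 libraries, grey is vehicle, red E2 and blue 16aOHE, and black bars are the mean ± SD of 3 libraries. Within each siRNA the E2 libraries stand above vehicle for Slc7a11, Slc7a5 and Slc3a2, the 16aOHE groups have the lowest means for Slc6a9, and Slc38a1 stays between 239.1 and 258.7 CPM.

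The targeted gene, Cyp1b1, was lower with its siRNA in every arm. Its mean was 92.2 ± 3.58 CPM (SD, n = 3) in scrambled vehicle and 81.5 ± 0.72 in siCYP1B1 vehicle, and the groups did not overlap in any arm. Averaged over the 3 arms its difference was -0.20 on the log2(CPM + 1) scale (SE 0.02, limma adjusted p = 5.83e-08). The siRNA thus left most of the transcript. Cyp1b1 itself responded to treatment. With scrambled siRNA it exceeded vehicle by 0.35 under E2 and by 0.20 under 16aOHE (limma adjusted p = 2.41e-07 and 0.00104). With siCYP1B1 the excess was 0.33 and 0.14 (adjusted p = 4.69e-07 and 0.0157). The siCYP1B1 E2 libraries, at 100.4 to 103.9 CPM, were therefore above those of scrambled vehicle, at 89.1 to 96.1. Some defining endothelial markers were near 0: Pecam1 averaged 0.05 CPM and Vwf 0.03, while Cd34 averaged 107 and Flt1 70.0. The smooth muscle myosin Myh11 averaged 0.08 CPM and the leukocyte gene Ptprc 0.03, whereas the mesothelial genes Msln and Upk3b averaged 1520 and 825 CPM and the collagen Col1a1 1950. These lists were mixed, however. In the mesothelial and epithelial list Krt8 averaged 0.52, Epcam 0.34, Cdh1 3.09 and Krt18 3.87 CPM, and in the fibroblast list Lum averaged 0.04 and Pdgfra 3.31. The smooth muscle gene Acta2 averaged 20.5 CPM, and the leukocyte genes Cd14 and Cd68 averaged 22 and 12.3. The summed level of 8 mesothelial and epithelial markers was 3668 to 3751 CPM in scrambled vehicle, 2872 to 3057 in scrambled E2 and 2375 to 2448 in siCYP1B1 E2. The summed fibroblast list (5 genes) ran from 6037 to 6358 CPM in scrambled vehicle, 3958 to 4426 in scrambled E2 and 3198 to 3305 in siCYP1B1 E2. The 7 measured endothelial markers summed to 256.7 to 296.5, 208.8 to 219.5 and 133.2 to 139.2 CPM in the same 3 groups, and the 5 smooth muscle markers to 35.4 to 40.4, 16.9 to 20.7 and 14.5 to 15.8. The 3 measured leukocyte markers stayed between 31.6 and 37.8 CPM in all 6 groups. The sums of all 5 lists were lower in scrambled E2 than in scrambled vehicle without overlap, by least for the leukocyte list (34.1 to 37.8 CPM in vehicle and 31.6 to 33.8 in E2). Except for the leukocyte list, they were also lower in siCYP1B1 vehicle than in scrambled vehicle without overlap. Their part in the transporter results was not tested. In bulk RNA, fewer cells of a type and less RNA per cell cannot be told apart.

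E2 raised the heavy chain and both of its partners among the 10 genes. In scrambled cells 3 transporters rose and none fell, and in siCYP1B1 cells 4 rose and none fell. By limma at an adjusted p under 0.05, 30.0% of all 11835 tested genes were called for E2 against vehicle with scrambled siRNA, and 27.5% with siCYP1B1, so the counts of 3 and 4 of 10 are near those shares. The median difference of the 10 genes on the log2(CPM + 1) scale was 0.11 in scrambled and 0.14 in siCYP1B1 cells, against 0.03 and 0.04 over all tested genes. For 5 of the 10 genes in each siRNA, every E2 library was above every vehicle library, as was the case for 25.5% of all tested genes in scrambled and 26.8% in siCYP1B1 cells.

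Slc7a11 (chr3:50364936-50443613) showed the largest difference. Its levels were 31.5, 31.7 and 30.1 CPM in scrambled vehicle, and 45.5, 52.9 and 49.2 CPM in scrambled E2. With siCYP1B1 they were 34.7, 28.9 and 36.7 CPM in vehicle, and 49.8, 59.4 and 56.7 CPM in E2. The lowest E2 library was thus above the highest vehicle library in both siRNAs. The mean rose by 58.2% in scrambled cells, a log2 difference of 0.64 (SE 0.08, limma adjusted p = 1.96e-06), and by 65.5% in siCYP1B1 cells, a log2 difference of 0.71 (SE 0.08, limma adjusted p = 4.96e-07).

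Slc7a5 (chr8:121881146-121907686) rose less steeply from a higher level. It measured 157.3, 165.0 and 169.9 CPM in scrambled vehicle and 217.3, 200.8 and 213.4 CPM in scrambled E2. In siCYP1B1 cells it measured 202.2, 195.4 and 197.3 CPM in vehicle and 248.0, 254.8 and 248.7 CPM in E2. Groups did not overlap within either siRNA. The increase was 28.3% in scrambled cells (log2 difference 0.36, SE 0.04, limma adjusted p = 5.1e-07) and 26.3% in siCYP1B1 cells (0.34, SE 0.04, adjusted p = 1.14e-06).

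Slc3a2 (chr19:8706882-8723369), the shared heavy chain, moved by a similar amount. Its values were 173.5, 169.6 and 171.7 CPM in scrambled vehicle against 214.7, 207.0 and 199.6 CPM in scrambled E2. In siCYP1B1 cells they were 199.1, 188.3 and 197.0 CPM in vehicle against 248.3, 241.5 and 232.1 CPM in E2. Again each E2 library exceeded each vehicle library. The increase was 20.7% (log2 difference 0.27, SE 0.04, limma adjusted p = 1.15e-05) and 23.5% (0.30, SE 0.04, adjusted p = 2.97e-06). These calls of the 3 genes held under every alternative run, including each left-out library.

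The cationic carriers differed by less. Slc7a1 (chr5:148327410-148399904) measured 302.1, 290.8 and 300.9 CPM in siCYP1B1 vehicle and 322.5, 344.0 and 325.6 CPM in siCYP1B1 E2, a rise of 11.0% (log2 difference 0.15, limma adjusted p = 0.0249). That call was lost with median-of-ratios scaling, without the mean-variance trend, without siCYP1B1 vehicle library 2 and without siCYP1B1 E2 library 2 (adjusted p up to 0.12). In scrambled cells it measured 262.5, 293.5 and 294.2 CPM in vehicle and 320.6, 310.4 and 296.7 in E2. The difference there was 0.13 with an adjusted p of 0.0522 by limma, and the interval ran from 0.03 to 0.23. It passed the threshold with quantile normalization and without scrambled vehicle library 2, scrambled vehicle library 3 or scrambled E2 library 3, with an adjusted p as low as 0.0352. Slc7a3 (chrX:101079210-101085405) averaged 0.97 ± 0.10 CPM (SD, n = 3) in scrambled vehicle and 1.52 ± 0.19 in scrambled E2, and 1.13 ± 0.19 and 1.75 ± 0.26 in the corresponding siCYP1B1 groups. Its E2 and vehicle libraries did not overlap in either siRNA, yet the limma adjusted p was 0.112 and 0.0991.

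The other 5 transporters did not pass the test with E2 in either siRNA. The 95% intervals of their log2 differences bound what could have been missed. For Slc38a1 (chr15:96571418-96642913) the interval was -0.08 to 0.07 in scrambled and -0.04 to 0.10 in siCYP1B1 cells. For Slc38a2 (chr15:96687392-96699728) it was -0.11 to 0.07 and -0.03 to 0.14. Slc1a4, Slc1a5 and Slc6a9 had wider intervals, from -0.19 to 0.29 at the extremes.

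Averaging both siRNAs, a contrast added after the values were seen, called 5 of the 10 genes higher with E2, against 44.2% of all tested genes. Slc7a1 (difference 0.14, limma adjusted p = 0.00242) and Slc7a3 (0.36, adjusted p = 0.0148) joined Slc7a11, Slc7a5 and Slc3a2. The test of the difference between siRNAs, the interaction of E2 and siRNA, called 0 of 11835 genes (0%) by limma, with 470 genes at an unadjusted p under 0.05. The smallest unadjusted p among the transporters was 0.142, for Slc1a5, and every adjusted p was 0.998. For Slc7a11 the interval of that interaction was -0.15 to 0.29 on the log2 scale, so a difference in response of that size between siRNAs was not resolved.

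16aOHE gave a different picture for the same genes. Within each siRNA, 1 transporter, Slc6a9, was called lower and none was called higher. Slc7a1 was higher by 0.12 in scrambled and 0.15 in siCYP1B1 cells without passing (limma adjusted p = 0.196 and 0.0821). Slc7a3 was higher by 0.40 and Slc7a5 by 0.08 in scrambled cells, also without passing (adjusted p = 0.227 and 0.304). For these 3 genes every scrambled 16aOHE library was above every scrambled vehicle library. With siCYP1B1 that held for Slc7a1 only, and Slc7a3 differed by -0.06. The share of all tested genes separated in this way was not computed for 16aOHE. By limma, 3.84% of all tested genes were called for 16aOHE against vehicle with scrambled siRNA and 5.40% with siCYP1B1. The median over the 10 genes was -0.001 and -0.01 on the log2 scale, against 0.003 and -0.007 over all tested genes.

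Slc6a9 (chr4:117835258-117869305), which carries glycine with sodium and chloride, measured 40.2, 34.8 and 35.0 CPM in scrambled vehicle and 28.4, 30.7 and 28.2 CPM in scrambled 16aOHE. In siCYP1B1 cells it measured 37.9, 34.9 and 30.4 CPM in vehicle and 30.9, 25.7 and 25.4 CPM in 16aOHE. The scrambled groups did not overlap, whereas the siCYP1B1 groups did, since 16aOHE library 1 was above vehicle library 3. The mean fell by 20.6% in scrambled cells (log2 difference -0.32, SE 0.08, limma adjusted p = 0.0247) and by 20.5% in siCYP1B1 cells (-0.32, SE 0.08, adjusted p = 0.0204). The scrambled call was lost without the trend and without scrambled vehicle library 1, scrambled 16aOHE library 1 or scrambled 16aOHE library 3 (adjusted p up to 0.151). The siCYP1B1 call was lost with only the groups compared in the fit and without siCYP1B1 vehicle library 1 or 2 or siCYP1B1 16aOHE library 2 or 3 (adjusted p up to 0.107).

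Averaged over both siRNAs, as an added contrast, 16aOHE lowered Slc6a9 by 0.32 on the log2 scale (interval -0.44 to -0.20, limma adjusted p = 0.000588), and this held in all 20 alternatives. In that contrast 11.3% of all tested genes were called, and 3 of the 10 transporters were, with Slc7a1 higher (0.13, adjusted p = 0.0117) and Slc1a4 lower (-0.12, adjusted p = 0.036). The Slc7a1 call held in all 20 alternatives. The Slc1a4 call was lost in 9 of its 20 alternatives: with only the groups compared, and without scrambled vehicle library 2 or 3, scrambled 16aOHE library 2 or 3, siCYP1B1 vehicle library 1 or 3, or siCYP1B1 16aOHE library 1 or 2. Slc7a11 was at 31.4, 32.5 and 30.9 CPM in scrambled 16aOHE and 32.3, 34.5 and 33.1 CPM in siCYP1B1 16aOHE, within the span of the vehicle libraries of siCYP1B1. Its averaged difference from vehicle was 0.01 with an interval of -0.10 to 0.12, which does not reach the differences seen with E2. The averaged difference of Slc7a5 was 0.07 (interval 0.01 to 0.12, limma adjusted p = 0.106). The interaction of 16aOHE and siRNA called 0 of 11835 genes (0%) by limma, with 596 at an unadjusted p under 0.05, and the smallest unadjusted p among the transporters was 0.059, for Slc7a3. That value involved scrambled 16aOHE library 1, in which Slc7a3 measured 2.43 CPM against 1.27 and 1.24 in the other libraries of its group.

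**Figure D3:**
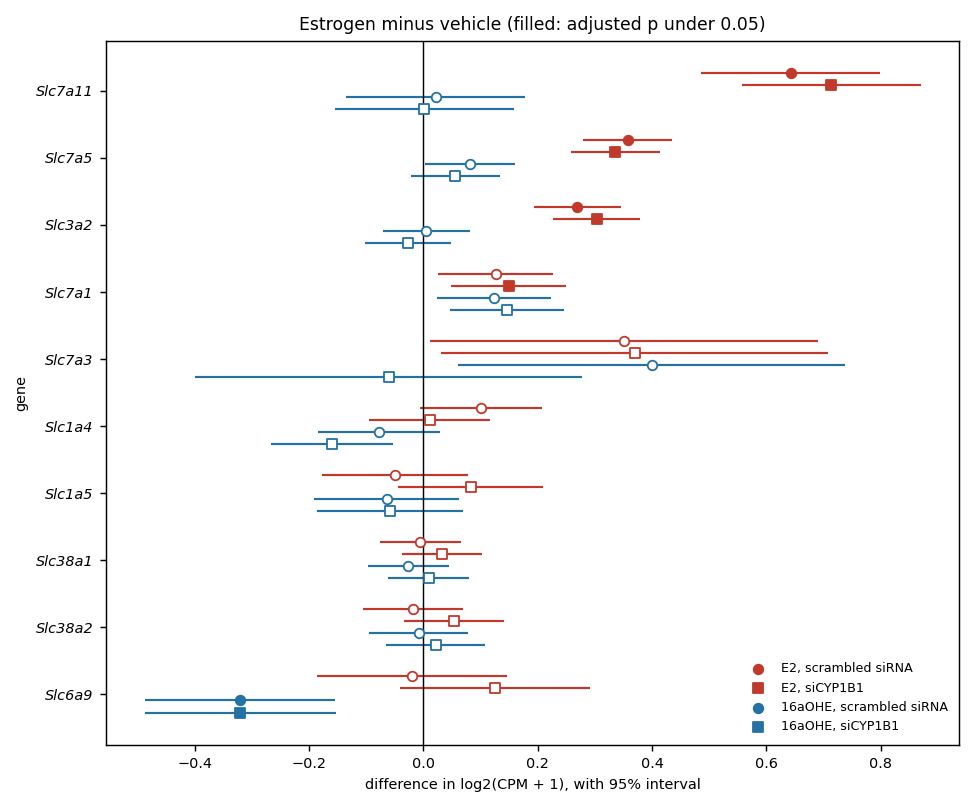
Difference from vehicle in log2(CPM + 1) for the 10 transporters, with 95% intervals from limma. Red is E2 and blue 16aOHE, circles are scrambled and squares siCYP1B1, and filled symbols passed an adjusted p of 0.05. Slc7a11, Slc7a5 and Slc3a2 are filled and positive for E2 in both siRNAs, and Slc6a9 is filled and negative for 16aOHE in both.

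The estrogens were also compared directly at their matched dose of 1 uM and matched time of 24 hours, as 1 pair of compounds in each of the 2 siRNAs. Estradiol carries a hydroxyl group on its D ring where estrone has a ketone, and 16aOHE is the form of estrone with an added hydroxyl group on that ring. Of the 10 transporters, 5 were lower with 16aOHE than with E2 in each siRNA and none was higher. By limma, 18.4% of all tested genes were called in scrambled and 18.3% in siCYP1B1 cells. The median of the 10 genes was -0.10 and -0.23, against -0.03 and -0.04 over all tested genes. These comparisons share the estrogen libraries with those against vehicle and are not independent of them.

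Slc7a11 averaged 31.6 ± 0.82 CPM (SD, n = 3) with 16aOHE and 49.2 ± 3.68 with E2 in scrambled cells, a log2 difference of -0.62 (interval -0.78 to -0.46, limma adjusted p = 8.45e-06). In siCYP1B1 cells the difference was -0.71 (interval -0.87 to -0.56, adjusted p = 1.26e-06). Slc7a5 differed by -0.28 in both siRNAs, Slc3a2 by -0.26 and -0.33, and Slc6a9 by -0.30 and -0.45, with limma adjusted p from 2.13e-06 to 0.0114. No library of one compound overlapped the other for these 4 genes or for Slc1a4 in either siRNA, nor for Slc7a3 in siCYP1B1 cells. The share of all tested genes without overlap was not computed here, so this separation is not read as particular to the transporters. Slc1a4 averaged 33.9 against 38.5 CPM in scrambled and 35.1 against 39.7 CPM in siCYP1B1 cells (differences -0.18 and -0.17, limma adjusted p = 0.0186 and 0.0235). The scrambled call for Slc1a4 was lost under both other scalings, with only the groups compared, and without scrambled E2 library 2 or 3 or scrambled 16aOHE library 3 (adjusted p up to 0.10). The siCYP1B1 call was lost under the same 3 settings and without siCYP1B1 E2 library 2 or 3 or siCYP1B1 16aOHE library 1 or 2 (adjusted p up to 0.156).

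For Slc7a1 the compounds gave nearly equal levels. It averaged 308.4 ± 3.93 CPM (SD, n = 3) with 16aOHE and 309.2 ± 12 with E2 in scrambled cells, and 330.4 ± 24.2 and 330.7 ± 11.6 in siCYP1B1 cells. The interval of the log2 difference was -0.10 to 0.10 in both siRNAs. For Slc38a1 it was -0.09 to 0.05 in both, and for Slc38a2 -0.08 to 0.10 and -0.12 to 0.06, whereas Slc7a3 allowed -0.29 to 0.39 in scrambled cells. Averaged over both siRNAs, as an added contrast, 5 of the 10 genes were lower with 16aOHE, the same 5, against 34.5% of all tested genes called, and the averaged Slc1a4 difference of -0.17 (limma adjusted p = 0.000828) held in all 20 alternatives.

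Cyp1b1 siRNA raised Slc7a5 and Slc3a2 in every arm. Between siCYP1B1 and scrambled siRNA, 2 of the 10 transporters rose in vehicle, 3 in E2 and 2 in 16aOHE, and none fell. By limma, 20.6%, 21.2% and 19.7% of all tested genes were called in the same arms, which is close to the share of the 10. The median over the 10 genes was 0.09, 0.11 and 0.06 on the log2 scale, against 0.03, 0.03 and 0.01 over all tested genes.

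Slc7a5 rose by 20.9% in vehicle (log2 difference 0.27, SE 0.04, limma adjusted p = 2.5e-05), by 19.0% in E2 (0.25, adjusted p = 5.76e-05) and by 18.8% in 16aOHE (0.25, adjusted p = 8.77e-05). In the last arm its levels were 170.3, 171.6 and 179.0 CPM with scrambled siRNA and 202.8, 214.1 and 201.8 CPM with siCYP1B1. Slc3a2 rose by 13.5% in vehicle (0.18, adjusted p = 0.00118), 16.2% in E2 (0.22, adjusted p = 0.000222) and 11.0% in 16aOHE (0.15, adjusted p = 0.00623). Its 16aOHE levels were 167.8, 170.4 and 178.6 CPM with scrambled siRNA and 187.3, 192.1 and 194.1 CPM with siCYP1B1. For both genes the siCYP1B1 libraries were above the scrambled ones in all 3 arms, without overlap, and these calls held in every alternative. The share of all tested genes without overlap between siRNAs was not computed. Separation here, and for Slc1a5 and Slc1a4 below, is thus not read as particular to these genes.

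Slc1a5 (chr7:16781346-16798274), which exchanges glutamine and other small neutral amino acids, rose in the E2 arm. It measured 100.6, 92.2 and 90.9 CPM with scrambled siRNA and 117.1, 110.3 and 102.7 CPM with siCYP1B1, without overlap (16.3%, log2 difference 0.22, SE 0.06, limma adjusted p = 0.0151). The call was lost without scrambled E2 library 2, scrambled E2 library 3 or siCYP1B1 E2 library 1 (adjusted p up to 0.0887). In vehicle its means were 97.9 and 103.7 CPM and in 16aOHE 93.6 and 99.8 CPM, with overlapping libraries. The log2 differences of Slc1a5 there were 0.08 and 0.09. Its interactions of siRNA with E2 and with 16aOHE did not pass (limma adjusted p = 0.998 and 0.999), so a difference between arms was not shown. Slc1a4 (chr11:20302180-20332713) had means of 35.8 and 39.4 CPM in vehicle without overlap, with a limma adjusted p of 0.071.

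Averaged over the 3 arms, siCYP1B1 raised 6 of the 10 transporters and lowered none, against 44.7% of all tested genes called. Slc7a5 was higher by 0.26 (limma adjusted p = 5.64e-09), Slc3a2 by 0.18 (adjusted p = 5.57e-07), Slc1a5 by 0.13 (adjusted p = 0.00515) and Slc7a1 by 0.09 (adjusted p = 0.0131). Slc1a4 was higher by 0.08 (adjusted p = 0.0422) and Slc7a11 by 0.11 (adjusted p = 0.0444). With median-of-ratios scaling 3 of the 10 passed, and Slc7a1, Slc1a4 and Slc7a11 no longer did. The Slc7a11 call held without scrambled E2 library 2, scrambled 16aOHE library 2, siCYP1B1 vehicle library 2, siCYP1B1 E2 library 1 or siCYP1B1 16aOHE library 1, and was lost without any one of the other 13 libraries and under 4 other settings (adjusted p up to 0.122). The Slc1a4 call was lost in 13 of 25 alternatives, 11 of them left-out libraries: scrambled vehicle 1 and 3, scrambled E2 1, scrambled 16aOHE 2 and 3, siCYP1B1 vehicle 1 and 3, siCYP1B1 E2 2 and 3, and siCYP1B1 16aOHE 2 and 3 (adjusted p up to 0.191). Slc38a1 differed by an interval of -0.04 to 0.04 and Slc38a2 by -0.02 to 0.08.

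**Figure D4:**
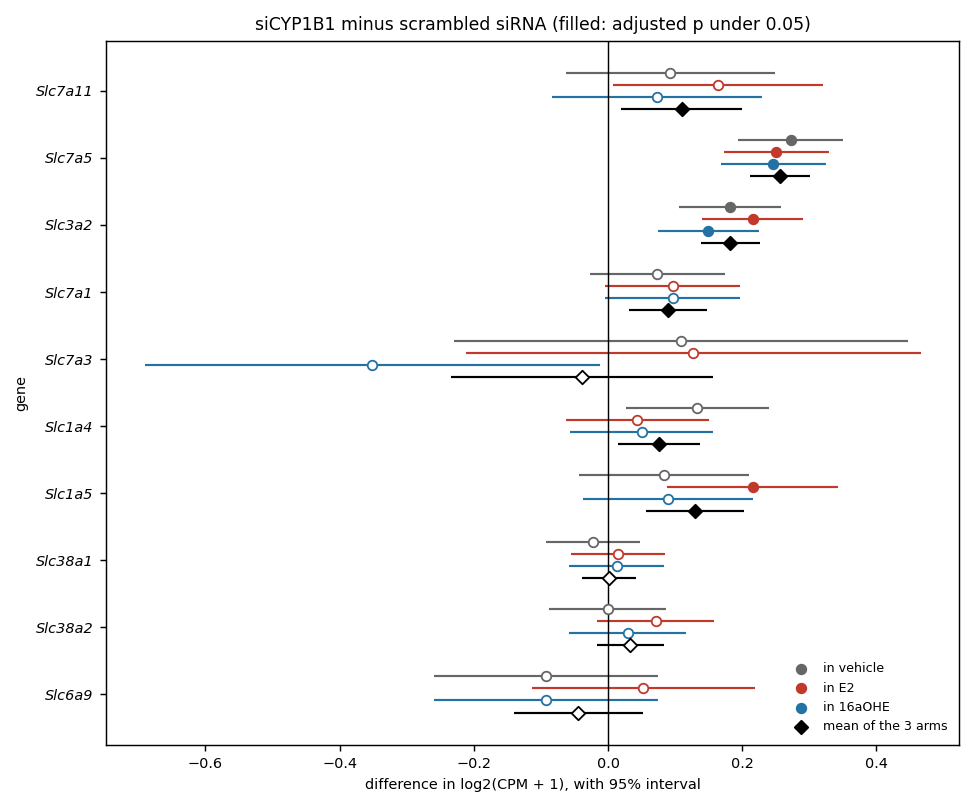
Difference between siCYP1B1 and scrambled siRNA in log2(CPM + 1) for the 10 transporters, with 95% intervals from limma. Grey is the vehicle arm, red E2, blue 16aOHE and black the mean of the 3 arms, and filled symbols passed an adjusted p of 0.05. Slc7a5 and Slc3a2 are filled in every arm, and 6 genes are filled for the mean of the arms.

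Other amino acid transporters moved in both directions. Of 46 listed, 26 were in the table and 16 were tested. With E2 in scrambled cells 5 of the 16 rose and 4 fell, with 16aOHE 1 rose (Slc38a10, 0.15, limma adjusted p = 0.0268), and with siCYP1B1 averaged over arms 7 rose and 3 fell. Among all tested genes 30.0%, 3.84% and 44.7% were called in these 3 comparisons, so the 16aOHE count is near the share of all genes. The inducible arginine carrier Slc7a2 (CAT2) averaged 36.2 ± 3.69 CPM (SD, n = 3) in scrambled vehicle and 47.8 ± 5.96 in scrambled E2 (0.39, adjusted p = 0.000993). The lysosomal cystine exporter Ctns rose from 16.9 to 22.2 CPM (0.38, adjusted p = 0.00176). In the opposite direction, Slc7a6, another light chain of Slc3a2, fell from 106.3 ± 4.77 to 85.0 ± 2.74 CPM with E2 (-0.32, adjusted p = 2.11e-05). The large neutral amino acid carrier Slc43a1 fell from 3.65 to 2.23 CPM (-0.53, adjusted p = 0.00299). Not every partner of the heavy chain therefore moved as Slc7a5 and Slc7a11 did.

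Genes of the amino acid response were higher with E2. Of 29 tested non-transporter ATF4 targets, 22 rose and none fell with E2 in scrambled cells, against 30.0% of all genes called, with a median of 0.25 against 0.03 over all tested genes. With siCYP1B1 averaged over arms 21 rose and none fell (median 0.13 against 0.03), against 44.7% of all genes called. With 16aOHE in scrambled cells 1 rose and 1 fell (median 0.01), against 3.84% of all genes called. Trib3, a pseudokinase induced by ATF4, went from 10.5 ± 0.80 CPM (SD, n = 3) in scrambled vehicle to 19.4 ± 0.95 with E2 and was at 12.4 ± 0.51 with 16aOHE (E2 difference 0.83, limma adjusted p = 1.36e-07). Stc2, a secreted glycoprotein, was raised by both compounds, from 5.61 ± 0.22 to 17.7 ± 0.82 CPM with E2 and 12.8 ± 1.81 CPM with 16aOHE (1.5 and 1.05, adjusted p = 3.57e-10 and 4.24e-07). Ddit4, an inhibitor of mTORC1, was the gene that fell with 16aOHE (-0.17, adjusted p = 0.0148). The mitochondrial folate enzyme Aldh1l2 rose with E2 (0.98, adjusted p = 2.01e-08) and with siCYP1B1 averaged over arms (0.53, adjusted p = 1.03e-08).

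Of 17 tested genes of glutathione and cystine handling, 9 rose and none fell with E2 in scrambled cells (median 0.16, against 0.03 over all tested genes), 2 rose with 16aOHE and 10 rose and 1 fell with siCYP1B1 over arms. The shares of all tested genes called were 30.0%, 3.84% and 44.7%. Heme oxygenase, Hmox1, rose from 189.0 ± 7.90 CPM (SD, n = 3) to 283.7 ± 15 with E2 (0.58, limma adjusted p = 1.14e-08), and the quinone reductase Nqo1 from 154.6 ± 6.28 to 228.5 ± 14.1 (0.56, adjusted p = 5.82e-07). The first enzyme of the pentose phosphate pathway, G6pdx, rose with both compounds, by 0.39 with E2 and 0.40 with 16aOHE (adjusted p = 6.97e-07 and 3.29e-06). Me1, malic enzyme, was the gene that fell with siCYP1B1 (-0.08, adjusted p = 0.0292).

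Among 11 regulators of transporter transcription, 2 rose and 2 fell with E2 in scrambled cells, none passed with 16aOHE, and 5 rose and 4 fell with siCYP1B1 over arms. The E2 count is near the 30.0% of all genes called, and the 16aOHE count is near the 3.84% called there. For siCYP1B1 that share was 44.7%. Atf4 measured 197.6 ± 10.5 CPM (SD, n = 3) in scrambled vehicle, 251.9 ± 12.2 in E2 and 207.8 ± 7.74 in 16aOHE, and 227.2 ± 14.7, 289.4 ± 16.3 and 229.9 ± 4.29 in the same arms of siCYP1B1. It rose with E2 (0.35, limma adjusted p = 2.84e-05) and with siCYP1B1 over arms (0.18, adjusted p = 3.76e-05). Eif2ak4, which encodes the amino acid sensing kinase GCN2, rose with E2 (0.21, adjusted p = 0.0117) and with siCYP1B1 (0.22, adjusted p = 2.14e-05). Myc, a known activator of several transporter genes, fell with E2 from 146.3 ± 4.89 to 112.5 ± 4.21 CPM (-0.38, adjusted p = 3.94e-05), and Mycn fell from 3.55 to 1.43 CPM (-0.91, adjusted p = 0.000174). The transcript of NRF2, Nfe2l2, did not pass with E2 in scrambled cells (348.1 ± 19.6 and 331.2 ± 13.3 CPM) and was lower with siCYP1B1 over arms (-0.08, adjusted p = 0.0158). In siCYP1B1 cells its mean was 343.1 ± 7.87 CPM in vehicle and lower, at 304.7 ± 11.2, in E2.

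Of 25 tested genes of amino acid sensing upstream of mTORC1, 11 rose and none fell with E2 in scrambled cells (median 0.17), none passed with 16aOHE, and 12 rose with siCYP1B1 over arms. Of all genes 30.0% were called for E2, 3.84% for 16aOHE and 44.7% for siCYP1B1, so the 16aOHE and siCYP1B1 counts are near those shares. The called genes included the leucine sensor Sesn1, from 52.6 to 68.2 CPM with E2 (0.37, limma adjusted p = 1e-05), and Rragd, a Rag GTPase, from 1.53 to 2.96 CPM with siCYP1B1 (0.63, adjusted p = 3.55e-05). Of 11 tested glutamine and arginine enzymes, 2 rose and 1 fell with E2, 1 fell with 16aOHE and 5 rose with siCYP1B1. The E2 and siCYP1B1 counts are near the shares of all genes called, 30.0% and 44.7%. For 16aOHE that share was 3.84%, and a single called enzyme is not read as a result about the list. Glud1, glutamate dehydrogenase, was the one that fell, with E2 (-0.13, adjusted p = 0.00462) and with 16aOHE (-0.14, adjusted p = 0.0154).

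**Figure D5:**
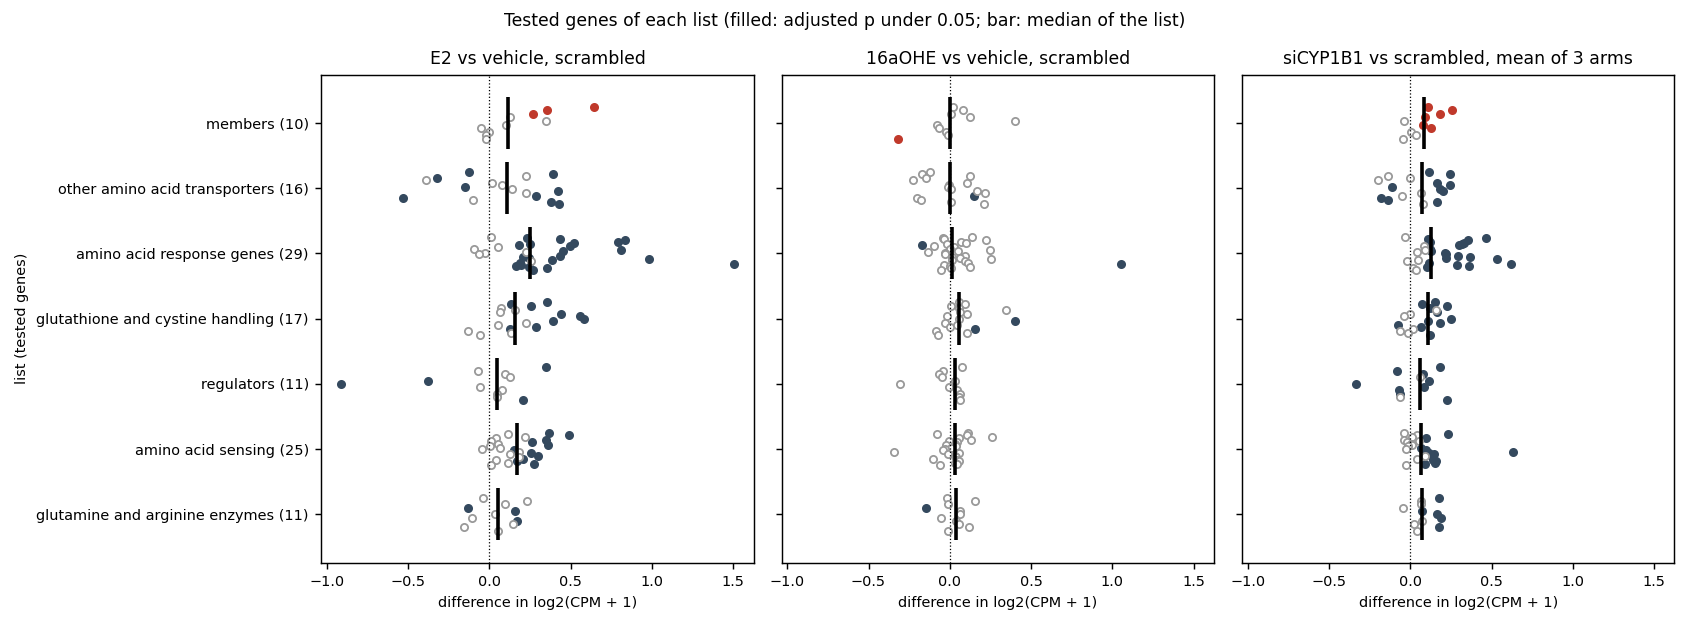
Differences in log2(CPM + 1) of the tested genes of the 10 transporters (members, top row) and of 6 related lists, for E2 and 16aOHE against vehicle with scrambled siRNA and for siCYP1B1 averaged over arms. Each point is a gene, filled where the adjusted p was under 0.05, and black bars are medians. With E2, 22 of 29 amino acid response genes are filled and positive, whereas with 16aOHE 2 are filled, 1 on each side of 0.

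The genes whose levels over the 18 libraries were most like Slc7a11 by Pearson correlation of log2(CPM + 1) were Vps35 (r = 0.97), Ostm1 (0.96), Fam20c (0.96), Chac1 (0.96) and Tnfaip2 (0.95), predicted genes left aside. Vps35 encodes a retromer subunit and Chac1 a glutathione-degrading enzyme of the ATF4 target list. Chac1 averaged 14.2 ± 0.48 CPM (SD, n = 3) in scrambled vehicle and 25.3 ± 2.29 in scrambled E2. All 18 points share the difference between the 6 E2 libraries and the other 12. Within the 6 E2 libraries r was 0.67 for Vps35, 0.93 for Ostm1, 0.86 for Fam20c, 0.12 for Chac1 and 0.85 for Tnfaip2. Within the other 12 it was 0.83, 0.22, 0.53, 0.84 and 0.04 in the same order. Among the transporters, Slc3a2 (r = 0.87, rank 217 of the tested genes) and Slc7a5 (r = 0.80, rank 554) were most like Slc7a11, and Slc38a2 least (r = 0.22). These correlations are descriptions without a test.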

How the data were processed

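Bulk RNA-seq of 18 libraries in 6 groups was used. The deposited values are CPM to which the authors added 1e-04 throughout (columns sum to 1000001.5 or 1000001.6), and this offset was removed. Alignment tools and build are TopHat2, Partek and mm10, per the submitters' processing notes. Their versions, the annotation and the strand setting were not given in the sources used here. Steps between low values showed that 1 CPM stood for 14.1 to 38.5 reads. Of low values, 93.8% to 95% were whole within 0.1 reads, so no count test was run.

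Values were tested as log2(CPM + 1) with limma 3.58.1 (R 4.3.3), which understates changes of low genes. The fit kept 11835 of 15288 genes (mean of 1 CPM or more), each group had 1 coefficient, eBayes used a trend, and p-values were Benjamini-Hochberg adjusted within each contrast at 0.05. The script was tested on simulated data. Groups came from the sample characteristics, and libraries were numbered only to name them. The plan held 12 contrasts, and 3 averaged over both siRNAs were added after the values were seen. No columns were left unused, and no 2 columns were identical. Log values of 2 libraries correlated at 0.9945 to 0.9978 in the same group and at 0.9864 to 0.9967 across groups.

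The members and lists were chosen with earlier results of these data known. Genes named in the text are all members, Cyp1b1, genes of the cell type marker lists, and the 5 genes most correlated with Slc7a11. Others were drawn from up to 4 called genes per direction with the largest differences in each related list. The 3 contrasts used for this were siCYP1B1 over arms, and E2 and 16aOHE against vehicle with scrambled siRNA. Gene positions were taken from the deposited table (mm10), 1-based, with the listed stop reduced by 1. Per-length levels used GENCODE M21 basic exons. Promoter sequences are from RefSeq (GRCm38.p6). Alternatives varied the pseudocount, low-value filter, scaling, trend, samples in the fit, and each library left out.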

Additional observations from a re-analysis of the deposited data

How the results depend on the processing

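Of 2495 alternative values for 150 differences of the 10 transporters, 2289 kept their direction and their side of the threshold, 126 stayed uncalled with a changed sign, 69 no longer passed and 11 newly passed. No called value changed sign. The number of transporters called went from 6 to 3 for siCYP1B1 over arms with median-of-ratios factors, from 1 to 0 for 16aOHE against vehicle in scrambled cells without the trend, and from 1 to 0 in siCYP1B1 cells with only the groups compared. Leaving out 1 library at a time gave 4 to 6, 0 to 1 and 0 to 2 in the same 3 comparisons. The cause of these changes was not tested. All genes called moved by over 1.5 times for 16aOHE against vehicle in siCYP1B1 cells (639, and 365 with only the groups compared, 384 without siCYP1B1 vehicle library 2, 316 without siCYP1B1 vehicle library 3 and 306 without siCYP1B1 16aOHE library 2) and in scrambled cells (454, and 282 and 284 without scrambled vehicle library 1 or 2, 248 and 285 without scrambled 16aOHE library 1 or 3). They also did for siCYP1B1 in 16aOHE (2331, and 1538 with only the groups compared or without scrambled 16aOHE library 1), for 16aOHE against E2 in siCYP1B1 cells (2171, and 1446 without siCYP1B1 16aOHE library 2), and for the 16aOHE interaction (0, and 12 with only the groups compared, 1 without the trend, and 1 without siCYP1B1 vehicle library 3).

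The share of called genes that were higher depended on scaling, although no transporter call changed direction. It was 62.0%, 46.9% and 51.0% for E2 against vehicle in scrambled cells as deposited, with median-of-ratios factors and with quantile normalization, and 60.6%, 45.8% and 50.8% in siCYP1B1 cells. For 16aOHE against E2 it was 36.8%, 54.5% and 49.4% in scrambled and 35.9%, 59.3% and 52.0% in siCYP1B1 cells. For siCYP1B1 against scrambled it was 55.7%, 41.4% and 47.0% in vehicle and 53.7%, 41.1% and 46.6% in E2. Averaged over both siRNAs it was 63.1%, 48.6% and 52.3% for E2 and 34.6%, 54.4% and 49.1% for 16aOHE against E2. Slc7a3 has no value with a minimum mean of 5 CPM, and a fit of only the groups compared was not run for the 3-arm mean, which uses all 6 groups. No paired analysis was possible because the labels give no replicate numbers that groups share.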
